A study of Mus musculus with 7 samples.

Results

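RNA polymerase II (RNAP2) regions lying deep inside protein-coding genes were examined in gastrocnemius, a fast hindlimb muscle, from wild-type male C57BL/6J mice aged 5 months. The mice were kept on a 12:12 light:dark cycle and standard chow. Chromatin immunoprecipitation with sequencing (ChIP-seq), in which an antibody pulls down a protein together with its DNA, was done for RNAP2 (clone 8WG16) and BMAL1 at ZT 4 and for REV-ERBα at ZT 8, with 2 replicates each, and peaks were called on each sample against input DNA. Zeitgeber time (ZT) counts the hours from lights on. RNAP2 regions were formed by merging peaks that overlapped by at least 1 bp, and 10752 regions had a peak in both RNAP2 lists. Of these, 1123 (10.4%) had their midpoint inside a protein-coding gene and over 10 kb from every transcription start site (TSS) of a protein-coding gene. These 1123 regions are the members described here, and gene sequence beyond that distance from any TSS is called deep gene body. The sample is whole muscle, so a peak cannot be assigned to fibers or to other cells of the tissue.

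RNAP2 transcribes messenger RNA precursors and many non-coding RNAs. It is densest at promoters, where it pauses before elongation, and it thins out along the gene body. A local RNAP2 peak far from an annotated coding start can lie at the promoter of a nested non-coding gene, at an unannotated start, at an enhancer or near the end of a transcript. BMAL1 is the activating subunit that pairs with CLOCK and binds E-boxes, and REV-ERBα is a nuclear receptor that represses transcription from sites of the nuclear receptor element type. Both act in the molecular clock that runs in muscle fibers.

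The 4 strongest members lay in introns of Tex14, a gene of the intercellular bridges of germ cells, and each covered a gene for the U3 small nucleolar RNA. U3 is transcribed by RNAP2 and guides early cleavages of the ribosomal RNA precursor. The start of the first copy, Rnu3b1, is shown because all 4 copies share it base for base (RefSeq sequence of mm10, plus strand, chr11:87443137-87443256, with the first bases of the U3 gene in capitals).
Rnu3b1: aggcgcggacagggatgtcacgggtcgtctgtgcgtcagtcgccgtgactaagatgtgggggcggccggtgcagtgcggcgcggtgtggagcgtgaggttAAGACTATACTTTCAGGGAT

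The strength of a peak is given as its −log10 p from peak calling, a larger value meaning a stronger enrichment over input. At Rnu3b3 (chromosome 11, 87448088 to 87449227) RNAP2 reached 83.3 and 77.5 (here and below, replicate 1 is given first), with 26.8-fold and 23.5-fold enrichment. The region at Rnu3b1 (87442931 to 87443752) had values of 95.6 and 42.6. At Rnu3b4 (87461888 to 87462879) they were 41.2 and 48.3. Rnu3b2 (87471031 to 87471857) was the lowest of the 4 with 39.8 and 33.2, still above every member outside Tex14 in both lists. The copies share 482 bp without a difference, 266 bp before the gene start and 216 bp from it, which takes in the whole 215 bp gene. All 8 summits, 1 per copy and list, lay outside this stretch, between 221 and 262 bp past the gene start. Reads that mapped to several places had been removed by the authors, and the effect of that on the height and summit of these peaks was not tested. A BMAL1 peak of replicate 1 (−log10 p 3.70) overlapped the region at Rnu3b3, and no other clock factor peak overlapped these 4 members.

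**Figure D1:**
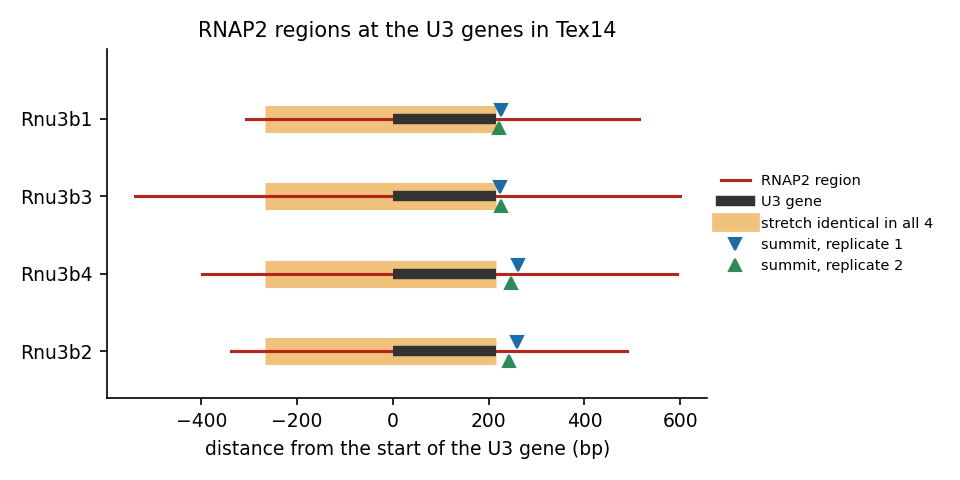
RNAP2 regions (red lines) at the 4 U3 genes (black) in Tex14, by distance in bp from the start of each gene, with the 482 bp that are identical in all copies in orange and the peak summits of replicates 1 and 2 as triangles. The summits of both lists sit between 221 and 262 bp, just past the end of the identical stretch.

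The fifth strongest member, in an intron of Mib1, was the widest. Mib1 encodes a ubiquitin ligase of Notch signaling, and the intron holds genes of the muscle microRNAs miR-1 and miR-133a on the opposite strand. The region spanned 9582 bp (chromosome 18, 10779007 to 10788588) and reached 34.3 and 19.4. Mir133a-1, Mir1a-2, Mir1b and the antisense host gene Mir133a-1hg all lay in it or within 1 kb of its edges. Regions of both clock factors, each found in both lists of its factor, also overlapped it. The REV-ERBα region there covered 9395 bp with values of 14.0 and 16.3, and the stronger of 2 BMAL1 regions had 6.74 and 6.43.

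Below these 5, a −log10 p of at least 5 in both lists was reached by 11 members, each in a different gene. Prdm2, a histone methyltransferase gene, held the strongest of them, with 19.5 and 11.7 at chromosome 4, 143161758 to 143162316. Its midpoint was 9 bp from the start of a predicted Prdm2 mRNA in RefSeq, and the 201 bp around its summit had 67.2% GC and a ratio of observed to expected CpG of 0.973. The next was 2422 bp wide with values of 13.5 and 10 (chromosome 8, 123881355 to 123883776). GENCODE places it in Gm20388, a gene model of 4434882 bp drawn across other coding genes, and it lay 9204 bp past the 3′ end of Acta1, the skeletal muscle actin gene. Itpkb, an inositol trisphosphate kinase gene, had 11.2 and 8.98, and Arid1b, a subunit gene of the BAF chromatin remodeler, had 10.2 and 7.08. Values of 6.99 and 6.60 were found in Ninj2, which encodes an adhesion protein. Pfkfb3, whose enzyme makes the fructose 2,6-bisphosphate that activates glycolysis, had 8.49 and 6.50. Creb3l1, a membrane-bound transcription factor gene, reached 17.7 and 6.43.

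The remaining 4 members of this strength were in Abcc1, a drug and glutathione conjugate exporter (10.5 and 6.35), Map3k20, a stress-activated kinase (7.43 and 5.52), Btd, the biotin-recycling enzyme biotinidase (10.4 and 5.21), and Pik3c2b, a class II phosphoinositide kinase (5.48 and 5.16). The Map3k20 midpoint lay 879 bp from a predicted mRNA start of the same gene in RefSeq, and the Pik3c2b midpoint 59 bp from the start of an antisense RNA, Gm28609. The Btd region was in a coding exon. In all, 7 of the 16 members with at least 5 in both lists (43.8%) had the TSS of a non-coding gene within 1 kb of the midpoint, and without the 4 in Tex14 it was 3 of 12 (25%). The share was 5.13% of the 117 members between 3 and 5, 1.47% of those between 2 and 3, and 1.69% of those under 2. Over all RNAP2 regions of any strength it was 11.6%, and shares by strength for the other places are not given here.

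**Figure D2:**
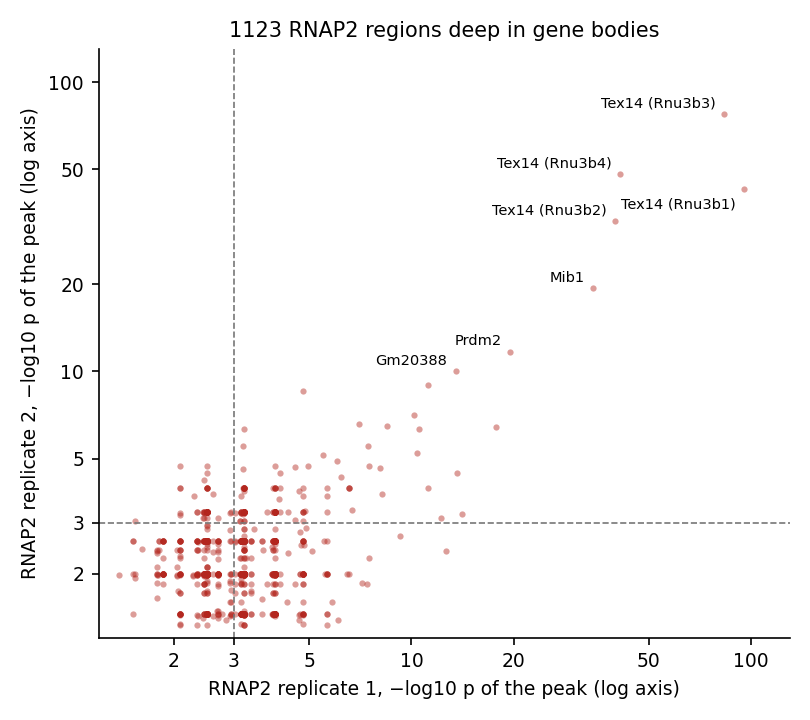
The −log10 p of each of the 1123 members in RNAP2 replicate 1 (x) and replicate 2 (y), both on log axes, with dashed lines at 3. The 4 Tex14 regions and Mib1 stand apart at the upper right, and most points lie below 3 in at least 1 list.

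Most members were far weaker than these. The lower −log10 p of the lists ranged from 1.33 to 77.5 with a median of 1.99, and 88.2% of members were under 3. Many members shared exactly the same values. In replicate 2 the commonest was 1.99 with 2.15-fold enrichment, held by 340 members (30.3%), and in replicate 1 it was 3.21 with 2.92-fold enrichment, held by 296 (26.4%). The number of reads behind a peak is unknown here. A −log10 p of at least 3 in both lists was reached by 133 members (11.8%), against 51.0% of all RNAP2 regions. A −log10 q of at least 1.3 in both lists, which is a false discovery rate of about 0.05, was reached by 18 members (1.6%), against 29.3% of all RNAP2 regions, and 4 of the 18 were the U3 regions. Across members, the Spearman correlation of the −log10 p of the lists was 0.104 (n = 1123), and among the 133 stronger members it was 0.531. Regions within 1 kb of a TSS gave 0.618 (n = 6100).

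By place, the members were most like the intergenic regions. The median lower −log10 p was 1.99 deep in gene bodies and 1.99 in the 2192 intergenic regions over 10 kb from a TSS. It was 2.43 in the 1337 regions 1 to 10 kb from a TSS and 4.69 in the 6100 regions within 1 kb. Members were also narrow, with a median width of 505 bp against 664 bp within 1 kb of a TSS, and 39 were over 1000 bp wide. Deep gene body made up 23.5% of the bases outside assembly gaps and held 1.81 RNAP2 regions per Mb, compared with 1.53 per Mb between genes, 2.68 at 1 to 10 kb and 62.3 within 1 kb of a TSS.

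**Figure D3:**
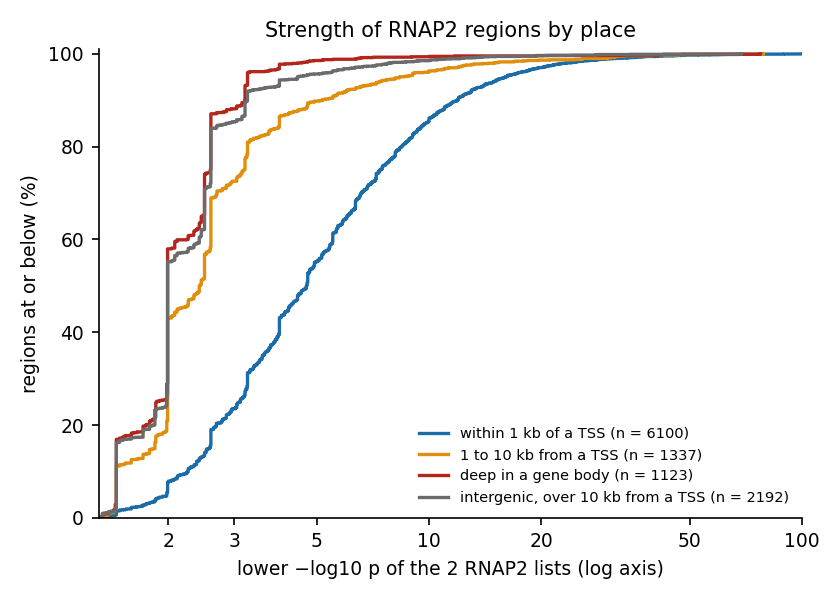
Cumulative share of RNAP2 regions (%) by the lower −log10 p of the 2 lists (log axis), for the 4 places. The curve of the members follows that of the intergenic regions, both with a median of 1.99, and regions within 1 kb of a TSS lie to the right with a median of 4.69.

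Few peaks in deep gene body recurred in the other replicate. Of the 20550 such peaks in replicate 1, 5.59% were overlapped by a peak of replicate 2, and of the 40846 in replicate 2, 2.77% by a peak of replicate 1. The corresponding shares within 1 kb of a TSS were 51.9% and 51.5%. The summit of a replicate 1 peak fell inside a replicate 2 peak in 3.74% of cases, while replicate 2 peaks covered 2.70% of deep gene body. For replicate 2 summits the share was 1.16%, with 0.792% of the bases covered. Recurrence rose with strength. Peaks of replicate 2 with a −log10 p of 5 or more were overlapped in 22 of 52 cases (42.3%), and those under 3 in 2.62%.

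Chromosome X held 2 members. It has 5.00% of the deep gene body and is present in 1 copy in males, and its density was 0.0643 members per Mb against 1.90 on the autosomes. The density of single-list peaks differed in the same direction, at 1.35 and 34.8 per Mb in replicate 1 and at 3.05 and 69.2 in replicate 2. Whether this follows from the copy number of X was not tested.

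The members fell in 869 genes, or 8.68% of the 10012 protein-coding genes that have deep gene body, and 7 members lay in more than 1 gene. A single member was found in 688 genes, 2 in 129, 3 in 34, and 4 or more in 18. Genes with a member were long, with a median of 182 kb against 49.1 kb for all genes with deep gene body, and the share of genes holding one rose from 1.69% of those with under 20 kb of deep body to 71.5% of those with 500 kb or more. Per Mb the density stayed within a narrow band, from 2.11 in the shortest group to 1.65 in the longest. Across the 10012 genes, the Spearman correlation of members with deep body length was 0.338.

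The density was close in genes with and without an RNAP2 region at their own TSS. Genes with such a region held 282 members, 1.82 per Mb, and genes without one held 841, 1.80 per Mb. Counting members that reached 3 in both lists, the values were 0.271 and 0.195 per Mb. Of the 16 members at 5 or more, 9 (56.2%) were in genes with RNAP2 at the TSS, beside 25.1% of all members. The 4 U3 regions, all in Tex14, were among these 9.

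**Figure D4:**
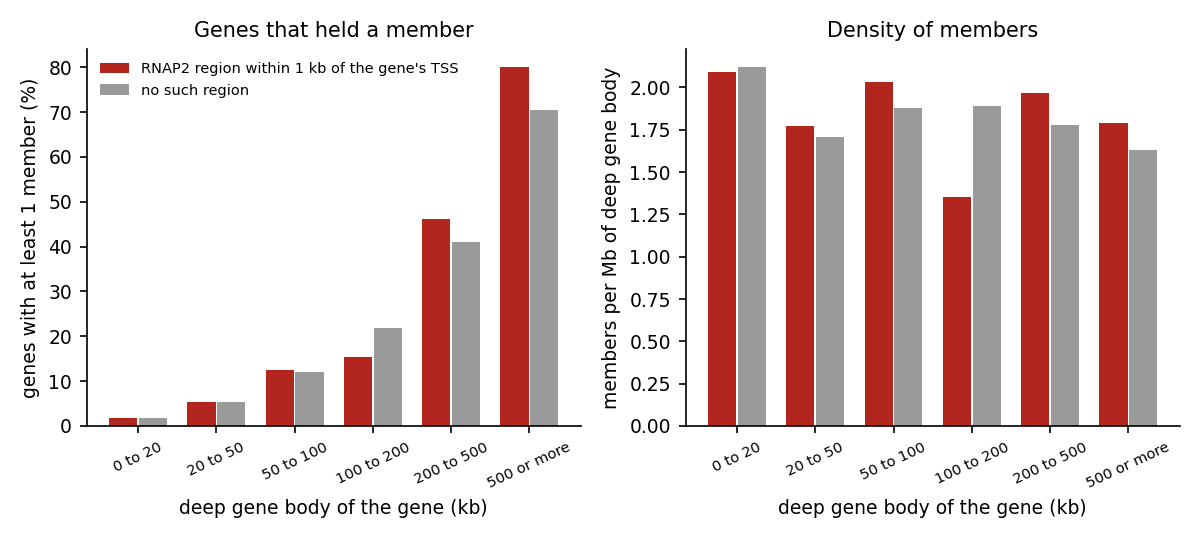
Share of genes with at least 1 member (left, %) and members per Mb of deep gene body (right), by the length of deep gene body in kb, for genes with (red) and without (gray) an RNAP2 region within 1 kb of a TSS. The share rises with length in both groups, to 80.0% and 70.4%, while the density stays between 1.35 and 2.12 per Mb.

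Fhit, a nucleotide hydrolase gene that spans a chromosomal fragile site, held the most members, 8 in 1542 kb of deep body. Their lower −log10 p ranged from 1.45 to 3.21. Gm20388, Galntl6, Ptprd and Cntnap2 held 6 each. Galntl6 encodes a glycosyltransferase family member, Ptprd a receptor tyrosine phosphatase and Cntnap2 a neurexin-family protein of axons, and none of the 4 genes had RNAP2 at its own TSS. The highest lower −log10 p among these members was 2.50 in Galntl6, 2.50 in Ptprd and 3.26 in Cntnap2, while Gm20388 held the region of 10 past Acta1. Tex14, with the U3 genes, was followed by Pard3b, a cell polarity gene, Sdk1, an adhesion gene, Srgap3, and the gene model named Fgfr2, each with 4 members. The highest lower −log10 p in these last 4 genes was 2.60, 2.60, 3.96 and 2.60. A further 8 genes also held 4 members, over a smaller summed width. The Fgfr2 model spans 2960900 bp in GENCODE with 29 other coding genes inside it, as against 104358 bp in RefSeq, and 0 of its 4 members lay in the RefSeq Fgfr2 gene, which encodes a growth factor receptor. The Gm20388 model holds 71 other coding genes. The other 8 of these 10 genes hold no other coding gene, and all their members lay in the RefSeq gene of the same name.

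Relative to length, the order changed. Among genes with at least 3 members, Nedd4, a ubiquitin ligase gene, was densest with 5.91 per 100 kb. Its 3 members lay close together on chromosome 9, from 72692848 to 72698827, with widths of 1376, 824 and 863 bp. Replicate 1 gave them 4.82, 4.55 and 8.21, and replicate 2 gave 2.51, 3.06 and 3.76. The Tex14 density was 4.24 per 100 kb. Kiz, a centrosome gene, had 3.56, Mvb12b, an endosomal sorting gene, had 2.36 and Srgap3 had 2.24. In Kiz and Mvb12b the lower −log10 p of every member was at most 1.99.

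Most members were intronic, as is most deep gene body. The midpoint was in an intron for 1057 members (94.1%), in a coding exon for 36 (3.21%) and in an untranslated region for 29 (2.58%), while introns made up 95.7% of deep gene body, coding exons 1.63% and untranslated regions 2.16%. The share in coding exons was thus above that of the bases, and it was 5.26% (7 regions) among the 133 members that reached 3 in both lists. The median relative position was 0.531, where 0 is the gene start and 1 the gene end. With each gene cut into 10 equal parts from its start, shares ran from 4.27% in the first, which holds 5.20% of the deep body, to 12.4% in the fifth, which holds 11%. The last 5 kb of the gene held 67 members (5.97%), and 4.83% of deep gene body lies there. The median distance to the nearest coding TSS was 34568 bp, and 231 members (20.6%) were over 100 kb away, up to 903999 bp.

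At the distance limit, the nearest regions inside were in Adgrg3 (10032 bp, 3.91 and 1.99) and Rai1 (10033 bp, 6.21 and 4.30). The nearest regions left out were in Zfp804b (9990 bp, 2.50 and 1.99) and Ppp1r7 (9987 bp, 2.50 and 1.45).

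CpG-rich summits were rare. The 201 bp around the replicate 1 summit had at least 50% GC and a CpG ratio of at least 0.6 in 25 members (2.23%), in 5.75% of intergenic regions and in 83.6% of regions within 1 kb of a TSS. Of the 25, 5 were at 5 or more in both lists and 11 between 3 and 5. They included Prdm2, Arid1b, Pfkfb3, Creb3l1 and Btd, and Rai1, where a lincRNA, 4930412M03Rik, starts 20 bp from the midpoint. Kcnq1, a potassium channel gene named here after its values were seen, held a further one with 8.09 and 4.62, and its midpoint was 127 bp from the start of Kcnq1ot1, an imprinted antisense RNA. In all, 29 members (2.58%) had the TSS of a non-coding gene within 1 kb, against 7.25% of intergenic regions and 11.6% of all RNAP2 regions.

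In each of the muscle lists the share of genes with a member was above the 8.68% of all genes with deep body, and the density ranged from 0.872 to 3.11 per Mb beside 1.81 for all. Of 55 sarcomere and Z-disc genes, 46 had an RNAP2 region at the TSS and 32 had deep gene body, of which 4 (12.5%) held 1 member each, or 3.09 per Mb. These were Myh4, the fast IIb myosin heavy chain (3.21 and 3.97), Myom3 (2.06 and 1.74), Xirp2 (3.97 and 1.99) and Synpo2 (2.93 and 1.99). The giant filament genes Ttn and Neb, chosen here after their values were seen, held none. Ttn had 158 kb of deep body with 2 peaks in replicate 1 and 4 in replicate 2, and Neb had 4 and 2 peaks. Excitation-contraction coupling genes had members in 4 of 23 (17.4%), with 2 each in Cacna2d1 and Camk2d and 1 each in Ryr3 and Asph, all below 3 in at least 1 list, or 1.92 per Mb. Among dystrophin complex and cytoskeletal anchor genes, 6 of 25 (24%) had 1 each, and Utrn, Sgcd, Lama2, Ank2 and Ank3 were 5 of them. Their density was 0.872 per Mb. Dmd, on chromosome X with 2067 kb of deep body, held no member and 3 and 4 single-list peaks.

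Glycolysis and glycogen genes had members in 3 of 17 (17.6%), namely Pfkfb3, Hk2 (3.26 and 2.26) and the glycogen branching enzyme gene Gbe1 (2.70 and 1.99). Of lipid metabolism genes, 2 of 20 (10%) did, with 2 members in the nuclear receptor gene Esrrg and 1 in the phosphatidate phosphatase gene Lpin1 (2.45 and 1.99). Myogenic transcription factors and cofactors had members in 5 of 26 (19.2%). Rbfox1, a splicing regulator with 1396 kb of deep body, held 3, Nfia held 2, and Nfatc2, Celf2 and Hdac9 held 1 each. The stronger Nfia region had 14.1 and 3.22, and its midpoint was 7 bp from the start of Gm19417, a predicted non-coding RNA in RefSeq. The density was 3.11 per Mb in the glycolysis list, 2.35 in the lipid list and 1.56 in the myogenic list. All of these rest on 8 or fewer members a list, and no list was tested.

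Circadian clock genes held 6 members in 4 of 15 genes (26.7%, beside 8.68% of all genes with deep body), or 4.28 per Mb beside 1.81. None of the 6 reached 3 in both lists, as 11.8% of all members did. Arntl, which encodes BMAL1 itself, had 1 with 3.21 and 2.60 (chromosome 7, 113277191 to 113277983). Rora, an activating receptor at REV-ERBα sites, had 2, the stronger with 3.15 and 2.60. Rorb had 2 and Btrc, a ubiquitin ligase subunit gene that acts on PER proteins, had 1 (2.50 and 1.99). None of the 6 was overlapped by a clock factor region found in both lists of that factor. The only peaks there were a BMAL1 peak of 1 list at Btrc and a REV-ERBα peak of 1 list at a Rorb member.

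Genes that mark other cells of the tissue also held members. Endothelial Kdr had 2 and Flt1 had 1, the matrix and mural genes Dcn and Pdgfrb 1 each, the myelin gene Mbp 1 and the neuronal gene Rbfox3 2. These were 2 of 11 endothelial genes with deep body, 2 of 6 fibroblast and matrix genes and 2 of 4 Schwann cell and neuronal genes, again beside 8.68% of all. The densities were 4.39, 6.85 and 6.37 per Mb beside 1.81, on 3, 2 and 3 members. None of these members reached 3 in both lists, as 11.8% of all members did. Of the genes named, only Dcn had RNAP2 at its own TSS. The adipocyte, immune and hepatocyte lists held none, but only 2, 6 and 4 of their genes have deep body, with 0.0156, 0.359 and 0.117 Mb in all. At the TSS, RNAP2 regions were present at 15 of 15 muscle identity genes, 2 of 13 endothelial, 4 of 13 fibroblast, 1 of 10 Schwann cell and neuronal, 1 of 10 immune, 1 of 8 adipocyte and 0 of 8 hepatocyte genes, beside 30.5% of all protein-coding genes.

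Clock factor regions seldom overlapped the members. A BMAL1 region with a peak in both BMAL1 lists overlapped 5 members (0.445%, exact binomial 95% interval 0.145 to 1.04), against 0.986% of all RNAP2 regions. A REV-ERBα region in both lists overlapped 7 (0.623%, interval 0.251 to 1.28), against 3.97%. The intervals cover counting error only. Single lists gave 29 members (2.58%) for BMAL1 replicate 1, 87 (7.75%) for BMAL1 replicate 2, 26 (2.32%) for REV-ERBα replicate 1 and 37 (3.29%) for REV-ERBα replicate 2. The same shares over all RNAP2 regions were 3.68%, 6.72%, 7.24% and 8.39%. The BMAL1 lists differ in length, with 34737 and 177669 peaks, whereas the REV-ERBα lists hold 28881 and 29934. No clock factor peak of any list overlapped 963 members (85.8%), and the same share over all RNAP2 regions is not given here. In the other direction, 722 of the 2742 BMAL1 regions in both lists lay in deep gene body, and 7 of those overlapped any RNAP2 region. For REV-ERBα the numbers were 224 of 1263, and 7. Over all places, 120 of the 2742 BMAL1 regions and 415 of the 1263 REV-ERBα regions overlapped any RNAP2 region.

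**Figure D5:**
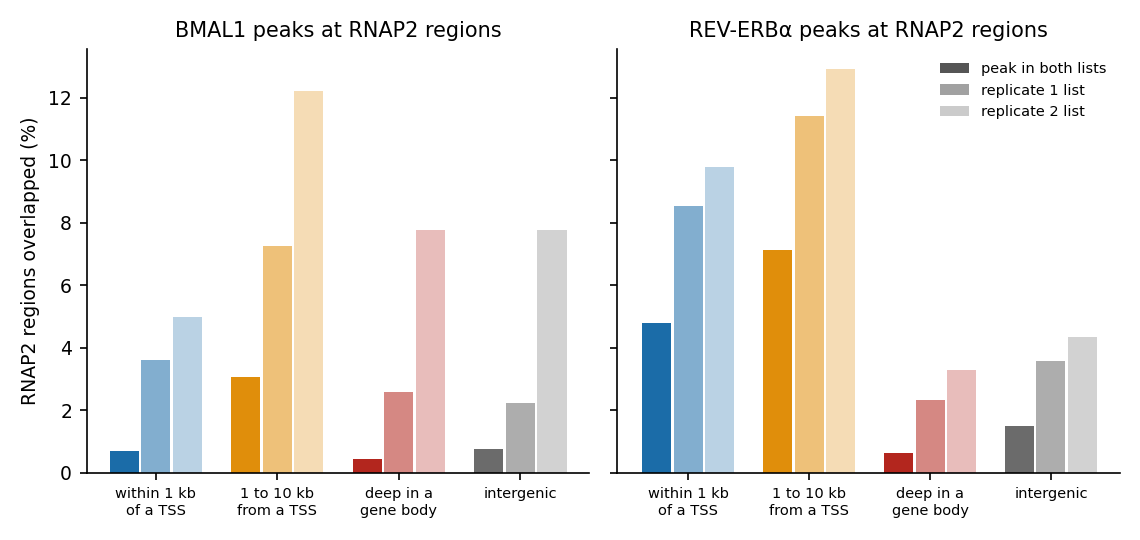
Share of RNAP2 regions (%) overlapped by BMAL1 (left) and REV-ERBα (right) peaks, by place, for regions in both lists of the factor (dark) and for the lists of replicates 1 and 2 (lighter). Members are at 0.445% and 0.623% for both lists, the lowest of the 4 places, and regions 1 to 10 kb from a TSS are highest at 3.07% and 7.11%.

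The REV-ERBα share was higher in wider and in stronger members. Of members at least 1000 bp wide, 4 of 39 (10.3%) had a REV-ERBα region in both lists, while none of the 548 members under 500 bp did. Among regions of at least 1000 bp the share was 34.3% at 1 to 10 kb from a TSS, 21.8% between genes and 15.8% within 1 kb. By strength, 3 of the 16 members at 5 or more (18.8%) had a REV-ERBα region in both lists. It was 2 of 117 between 3 and 5, 1 of 339 between 2 and 3 and 1 of 651 under 2. Stronger members were also wider, with a median of 910 bp at 5 or more against 495 bp under 2, and width and strength were not separated. Shares by strength for the other places are not given here. For BMAL1, with 5 members in all, 1 was at least 1000 bp wide and 2 were under 500 bp, and 1 was at 5 or more.

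Mib1 and Myh4 were the members with regions of both factors in both lists. In Myh4 the RNAP2 region was 631 bp wide (chromosome 11, 67258757 to 67259387) and lay at a relative position of 0.939, near the 3′ end of the gene. It sat inside a BMAL1 region of 5869 bp with 8.09 and 7.22 and a REV-ERBα region of 27270 bp with 13.7 and 14.9. The factor regions were thus far wider than the RNAP2 region. The BMAL1 peaks that overlapped the RNAP2 region itself had 8.09 and 4.25. The REV-ERBα region ran across the whole gene, and the replicate 2 summits of both factors lay past the 3′ end of Myh4. The other REV-ERBα members were in Pfkfb3 (2.82 and 3.79), Map3k20 (2.50 and 2.15), Ttc7, a scaffold gene of the phosphatidylinositol 4-kinase complex (4.15 and 3.18), Msra, the methionine sulfoxide reductase A gene (2.31 and 3.36), and Gm20388 (2.98 and 3.47, at chromosome 8, 123871751 to 123872820). RNAP2 at these was 4.97 and 4.73 in Ttc7, 7.49 and 2.26 in Msra, and 7.38 and 1.84 in Gm20388. The distance from the REV-ERBα summit to the RNAP2 summit, both of replicate 1, was 33 bp in Gm20388, 202 bp in Msra, 309 bp in Pfkfb3, 397 bp in Myh4, 417 bp in Map3k20, 825 bp in Ttc7 and 6686 bp in Mib1.

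At the other members with BMAL1, both BMAL1 and RNAP2 were weak. Pi4ka, a phosphatidylinositol 4-kinase gene, had BMAL1 at 3.0 and 1.87 and RNAP2 at 2.50 and 3.26. In Nrg1, which encodes a ligand of ERBB receptors, the BMAL1 region had 2.01 and 2.40 and overlapped the RNAP2 region by 75 bp. Only its replicate 2 peak reached the RNAP2 region. In Vmn2r65, a vomeronasal receptor gene, the BMAL1 region had 3.0 and 1.40, and the overlap was 8 bp at the edge of the RNAP2 region. Here only the replicate 1 peak reached the RNAP2 region.

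Sequence at the REV-ERBα summits is shown for the members that held an E-box or a nuclear receptor element within 100 bp of a summit and no annotated exon in that window. All are on the plus strand of mm10 as given by RefSeq. Capitals mark the E-box, spelled CACGTG, in which BMAL1 sites are known. They also mark the myogenic E-box of muscle regulators, spelled CAGCTG, and the core of the nuclear receptor element, spelled AGGTCA, all on either strand. The windows are at chr2:11535512-11535712 for Pfkfb3, chr14:64154249-64154449 for Msra and chr8:123872066-123872266 for Gm20388.
Pfkfb3, REV-ERBα replicate 2 summit: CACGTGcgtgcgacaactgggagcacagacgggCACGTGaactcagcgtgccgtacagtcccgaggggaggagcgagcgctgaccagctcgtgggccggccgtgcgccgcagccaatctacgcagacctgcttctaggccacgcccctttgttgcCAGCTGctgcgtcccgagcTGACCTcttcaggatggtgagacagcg
Msra, REV-ERBα replicate 1 summit: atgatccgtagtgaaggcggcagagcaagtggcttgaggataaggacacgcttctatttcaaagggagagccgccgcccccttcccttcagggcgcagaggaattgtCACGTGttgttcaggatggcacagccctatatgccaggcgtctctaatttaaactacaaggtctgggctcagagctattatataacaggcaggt
Gm20388, REV-ERBα replicate 2 summit: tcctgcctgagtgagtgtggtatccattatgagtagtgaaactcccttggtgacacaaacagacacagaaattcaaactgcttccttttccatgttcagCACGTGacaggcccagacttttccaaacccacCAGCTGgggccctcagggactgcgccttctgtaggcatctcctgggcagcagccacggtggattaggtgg

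The Pfkfb3 window held 2 E-boxes, 1 myogenic E-box and 1 nuclear receptor element. In Map3k20 the window of replicate 2 held a myogenic E-box and a nuclear receptor element, and in Myh4 that of replicate 1 held a myogenic E-box. Of the 14 windows at REV-ERBα summits, 5 held any of the 3 motifs, each in a different region, and in 0 of the 7 regions did both replicates' windows hold one. Mib1 and Ttc7 had none in either window. No window at a BMAL1 summit of these members held any of the 3 motifs. Over all 1263 REV-ERBα regions in both lists, the E-box occurred in 3.56% of replicate 1 windows and 4.28% of replicate 2 windows. The myogenic E-box occurred in 12.7% and 12.6% of them, and the nuclear receptor element in 12.6% and 13.7%. Over the 2742 BMAL1 regions, the E-box occurred in 2.66% and 3.06%, the myogenic E-box in 6.67% and 7.04%, and the nuclear receptor element in 10.6% and 11.7%. At RNAP2 summits of replicate 1, the E-box was in 3.38% of members and 4.69% of all RNAP2 regions. The nuclear receptor element was in 13.6% and 9.77%, the myogenic E-box in 11.9% and 11.3%, the AP-1 site TGACTCA in 4.27% and 2.61%, and the MEF2 consensus in 3.74% and 1.87%. Promoter regions make up most of all RNAP2 regions. Among intergenic regions, the E-box was in 2.01%, the nuclear receptor element in 12.9%, the myogenic E-box in 9.58%, the AP-1 site in 3.28% and the MEF2 consensus in 2.97%. In the 133 members that reached 3 in both lists, the myogenic E-box was in 27 windows (20.3%) and the MEF2 consensus in 8 (6.02%), while the E-box was in 3 (2.26%), the nuclear receptor element in 16 (12.0%) and the AP-1 site in 5 (3.76%). A match here is a run of letters and not a site shown to be bound.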

How the data were processed

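ChIP-seq peaks of RNAP2, BMAL1 and REV-ERBα were analyzed in 2 samples each. The authors aligned reads to mm10 with BWA (version 7.12 in the submitters' processing notes), discarded duplicates and reads with several mapping places, reduced the replicates to equal depth, and called peaks per sample with MACS2 2.1.1 against input at a p cutoff of 0.05. The deposited lists give each peak a fold enrichment, a −log10 p, a −log10 q and a score, and the score was not used. Input and read tracks were not analysed here, so depth at a peak is unknown. Replicates are called biological by the study, with no animal named in the labels. Regions were merged at 1 bp overlap and placed by midpoint on GENCODE M21, with the 5′ end of every transcript of a protein-coding gene as a TSS. Sequence and predicted mRNAs came from RefSeq GRCm38.p6. A region's strength was the lower −log10 p of its lists, taking the strongest peak per list. Motifs were searched for on either strand up to 100 bp from a summit.

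No test was made, since all RNAP2 samples are of 1 condition and regions are not replicates. The members and gene lists were chosen with earlier results of these data known. Named genes are the 10 with most members (ties by summed width), those at the 10 strongest members, those with a factor region in both lists, the 5 densest, up to 5 per gene list, and those at the distance limit. Other genes with a member of at least 5 in both lists, and those said to be, were chosen after their values were seen. The code was tested on simulated lists and passed 5 of 5 checks. Python 3.11.15, NumPy 2.4.6, SciPy 1.17.1, pysam 0.24.0, SAMtools 1.23.1 and matplotlib 3.10.9 were used.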

Additional observations from a re-analysis of the deposited data

Results flagged for a closer look

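The RNAP2 list of replicate 1 held 9 peaks on unplaced scaffolds, with a −log10 p of up to 9.80, whereas the other 5 lists held none. These sequences lie outside the annotation used, so the peaks were in no comparison.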

How the results depend on the processing

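The member counts depend on the peak threshold and on recurrence between replicates, and less on the distance or annotation. A −log10 p of at least 3 in both RNAP2 lists left 133 members in 128 genes, and a −log10 q of at least 1.3 left 18 in 15. With the replicate 2 list cut to the 87861 strongest peaks there were 602 members in 527 genes. The largest number in 1 gene was then 4 under each of these settings. Either RNAP2 list alone gave 20550 to 40846 members, 4864 to 6339 genes and at most 104 to 174 in 1 gene. The share with a REV-ERBα region rose to 3.76% and 16.7% at those thresholds, to 2.02% at 5 kb from a TSS and to 1.29% with TSSs of protein_coding transcripts only, was 0.0783% to 0.161% with either RNAP2 list alone, and 2.32% to 3.29% with either REV-ERBα list alone. The BMAL1 share was 1.5% and 5.56% at the thresholds and 2.58% to 7.75% with either BMAL1 list alone, and 0.200% to 0.237% with either RNAP2 list alone. Introns held 92.2% at 5 kb, 96.4% at 20 kb and 91.0% with protein_coding transcripts only. The median relative position was 0.483 and 0.410 at the thresholds and 0.566 with protein_coding transcripts. The median width was 582 and 824 bp at the thresholds, 479 bp at 50% overlap and 203 to 352 bp with either list alone. The causes were not tested, but the thresholds keep fewer regions by construction. The other 56 of 94 recomputed values moved by less than 1.5 times for counts, or stayed within the 95% interval for shares and medians. Among the 10 genes with most members, Tex14 kept 4 regions at both thresholds and had 0 when TSSs of all gene types counted, and Fhit had 1 and 0 at the thresholds. No paired analysis was possible because no test was made. Depth at a peak is unknown, so a region absent from a list is not shown to lack RNAP2.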
